A study of Mus musculus with 4 samples.

Results

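The genes considered here are the Notch receptors and their ligands in a mouse pre-T cell line, 9 of the 24391 genes of the count table. They were listed by symbol, with earlier results of these data known. All 9 symbols were found: the 4 receptors Notch1, Notch2, Notch3 and Notch4, and the 5 ligands Dll1, Dll3, Dll4, Jag1 and Jag2. Both groups consisted of Beko cells, a progenitor T-cell line in which Notch signaling is constantly active, and both had received the γ-secretase inhibitor (GSI) DAPT. In the GSI group (2 libraries) total RNA was taken after 48 h in GSI, and in the washout group (2 libraries) the same 48 h in GSI was followed by washing and 24 h of culture without the inhibitor. The labels give the dose as 10 mg/ml, whereas the methods of the study give the same figure in μg/ml. All 4 libraries come from 1 cell line, and cells that were washed without ever having seen the inhibitor were not analysed here, so that 24 h of further culture and the removal of GSI cannot be told apart. The question put to these libraries was which genes respond when Notch activity is allowed to return.

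Notch receptors are single-pass membrane proteins that are bound by ligands of the Delta and Jagged families on a neighboring cell. Binding allows ADAM10 to cut the receptor outside the membrane, after which γ-secretase cuts it within the membrane and frees the Notch intracellular domain, which joins RBPJ on DNA and activates transcription. GSI blocks the last cut, so receptor and ligand mRNAs are read here on either side of a block that acts on the receptor protein. In the thymus, Notch1 on progenitors and Dll4 on the epithelium drive T-cell commitment.

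The stretch on which the inhibited protease acts is shown for the 4 receptors, because it is the part of each member that the treatment concerns directly. In each receptor it was taken as the 21 codons with the highest mean hydropathy after the first 50 codons of the longest coding transcript, read from the NCBIM37 (mm9) genome. In every receptor these 63 bases lie within 1 coding exon, and the capitals mark codons for valine. The intracellular domain of Notch1 is known to begin at valine 1744, which is the last valine codon in its window. For the other receptors no cut position is implied by the capitals.
Notch1: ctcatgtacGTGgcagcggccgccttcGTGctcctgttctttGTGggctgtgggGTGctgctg
Notch2: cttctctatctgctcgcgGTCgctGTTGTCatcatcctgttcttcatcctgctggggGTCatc
Notch3: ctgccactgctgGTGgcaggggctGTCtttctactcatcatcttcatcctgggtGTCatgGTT
Notch4: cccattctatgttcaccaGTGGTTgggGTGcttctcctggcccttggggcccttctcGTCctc
The Notch1 window is at chr2:26320986-26321048 on the minus strand, in exon 28 of 34, and covers codons 1726 to 1746. The Notch2 window is at chr3:97942594-97942656 on the plus strand, in exon 28 of 34, and covers codons 1680 to 1700. The Notch3 window is at chr17:32276198-32276260 on the minus strand, in exon 27 of 33, and covers codons 1645 to 1665. The Notch4 window is at chr17:34721383-34721445 on the plus strand, in exon 24 of 30, and covers codons 1444 to 1464. Each window holds 4 valine codons, at different places along the stretch.

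The libraries held 13716199 to 36364200 counts. A limit of 3 counts corresponded to 0.0881 to 0.223 CPM (counts scaled to a common library size by the total and the TMM factor), and limits and intervals given here cover counting error only. Of the 14 T-cell progenitor markers examined, all passed the filter on low counts. Their summed level was 6387 to 7369 CPM in the 4 libraries, which fits the label of the line. The sum, in which Rag1 was the highest gene, does not show that single markers differed between the groups in both directions. Ptcra was at 47.1 and 54.4 CPM in the GSI libraries and at 248 and 276 CPM in the washout libraries. Gata3 was at 262 and 208 CPM in the former and at 75.8 and 71.7 CPM in the latter. In each list of markers of other cell types some defining genes were at 0 in every library, while single genes of the endothelial, stromal and myeloid lists had a clear level. Of the 5 endothelial markers 4 were at or under 3 counts in every library, with Kdr at 0, and the summed level of 174 to 221 CPM in GSI and 64.6 to 67.1 CPM upon washout was nearly all Pecam1. Of the 8 stromal markers 4 were at or under 3 counts everywhere, with Col3a1, Dcn and Lum at 0, and the sum went from 47.0 to 49.99 CPM in GSI to 29.3 to 37.9 CPM upon washout, mostly as Pdgfrb. Of the 5 myeloid markers 2 were at or under 3 counts, with Lyz2 at 0, and the sum was 41.5 to 53.2 CPM in GSI and 12.8 to 13.1 CPM upon washout. Within it, Itgam was at 48.7 and 37.9 CPM in the GSI libraries but at 5.37 and 4.76 CPM in the washout libraries, whereas Cd68 was at 4.28 and 3.43 CPM in the former and 7.58 and 7.81 CPM in the latter. Of the 6 B-cell markers 4 were at or under 3 counts, with Ms4a1, Pax5 and Ebf1 at 0, and the sum was 0.323 to 0.959 CPM.

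Upon GSI washout, Notch1 was upregulated about 2.204-fold, and it was the only one of the 5 members that could be tested to pass both thresholds. Notch3, the other abundant receptor, differed between the groups by less than the spread of the replicates. Notch2, Notch4 and Jag2 had lower levels upon washout in both libraries, with differences that passed the adjusted p-value but not the fold threshold and that, for Notch2, changed sign under an offset for GC content and exon length. Dll1, Dll3, Dll4 and Jag1 had at most 18 counts in any library and did not pass the filter on low counts. Genes were called at an adjusted p-value under 0.05 together with a log2 fold change beyond 1 in either direction, which took in 19.5% of the 12266 genes tested, 7.74% as higher and 11.7% as lower upon washout. The call thus covered 1 of 5 tested members as higher and 0 as lower. It covered 0 members without GSI replicate 1, 2 without GSI replicate 2 (Notch1 and Jag2) and 3 without washout replicate 1 (Notch1, Notch4 and Jag2). By the adjusted p-value alone, 1 member was higher and 3 were lower, against 27.0% and 25.4% of all genes tested (52.5% in either direction). Of these 3, Notch2 and Notch4 missed the adjusted p-value without any 1 of the libraries other than washout replicate 1, and Jag2 missed it without GSI replicate 1 (0.0611). The median log2 fold change of the 5 members was -0.36, against -0.01 over all genes tested.

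**Figure D1:**
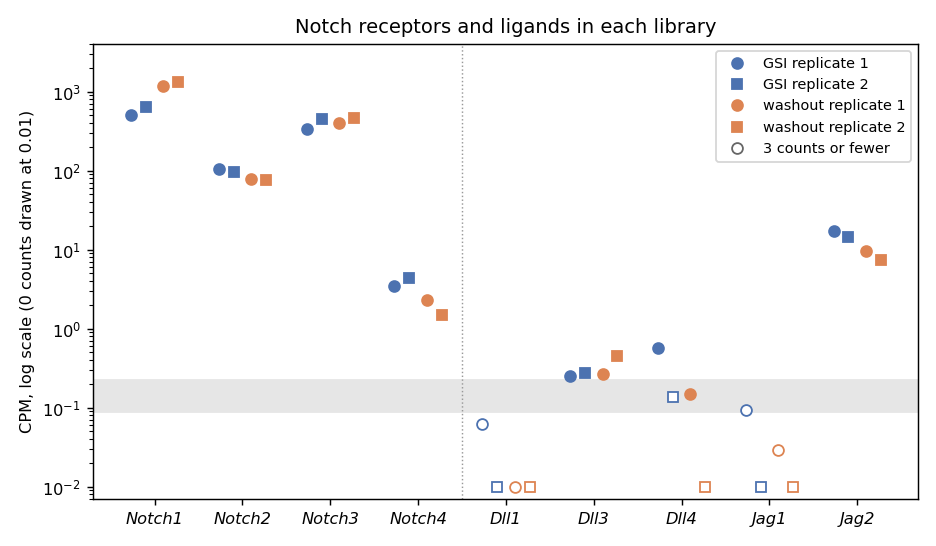
Level of each Notch receptor (left of the dotted line) and ligand (right) in CPM on a log scale, with 1 point for each of the 4 libraries. Open symbols have 3 counts or fewer, libraries with 0 counts are drawn at 0.01 CPM, and the gray band spans the CPM that 3 counts represent in the 4 libraries (0.0881 to 0.223). Notch1 is the member with the widest upward gap between the groups among those above the band, and Notch3 has points of both groups interleaved.

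Notch1, the main Notch receptor of T-cell progenitors, was measured in GSI replicates 1 and 2 at 505 and 636 CPM, and in the washout libraries at 1184 and 1332 CPM. Both washout libraries lay above both GSI libraries, with means of 571 ± 92.5 and 1258 ± 105 CPM (SD, n = 2 each), and such a separation was found for 77.3% of the genes tested (38.2% with washout higher and 39.1% with washout lower). The log2 fold change was 1.14 (SE 0.156), with an adjusted p = 0.0018 in the quasi-likelihood test of edgeR (Benjamini-Hochberg). Of all genes tested, 5.79% had a larger log2 fold change. Measured in bulk RNA, more cells with Notch1 mRNA and more Notch1 mRNA per cell cannot be told apart. By its mean log2 CPM, not divided by exon length, Notch1 ranked 85th among the 12266 genes, a rank that favors long genes. The log2 fold change lies close to the threshold of 1: it was 0.98 without GSI replicate 1 (adjusted p = 0.0144) and 0.94 when libraries were scaled by total counts alone (adjusted p = 0.00317), so that the call was lost although the direction was kept. Over all 17 alternatives tried, the log2 fold change was 0.94 to 1.79 and the adjusted p-value at most 0.487, the latter in a test against a log2 fold change of 1 itself. The gene lies at chr2:26313423-26372183 on the minus strand. Its exons share 1068 bases with 0610009E02Rik and 414 bases with Gm13568, both lincRNAs on the opposite strand that are not in the count table, and since the strand setting of the counting is not given, reads from them cannot be told from those of Notch1.

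Notch3, a receptor whose activation is also known from T-cell leukemia models, was measured at 340.2 and 448 CPM in the GSI libraries and at 403 and 465 CPM in the washout libraries. The libraries of the groups overlapped, and the means were 394 ± 76.4 and 434 ± 43.7 CPM (SD, n = 2 each). The log2 fold change of 0.14 (SE 0.161) had an adjusted p = 0.499 in the quasi-likelihood test of edgeR (Benjamini-Hochberg), and its sign changed with the scaling, to -0.06 with total counts alone, and without GSI replicate 1, to -0.05. With the offset for GC content and exon length it was 0.72 (adjusted p = 0.00304 in the quasi-likelihood test of edgeR, range over the alternatives 1.82e-07 to 1), which is still within the fold threshold. Notch3 ranked 350th among the genes tested by mean log2 CPM, again not divided by exon length. It lies at chr17:32257765-32303825 on the minus strand, and 488 bases of its exons are shared with the lincRNA Gm17276 on the other strand.

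Notch2, the receptor best known from B cells and myeloid cells in blood, was at 103 and 95.8 CPM in the GSI libraries and at 78.8 and 75.8 CPM in the washout libraries. Both washout libraries were lower, with means of 99.5 ± 5.26 and 77.3 ± 2.12 CPM (SD, n = 2 each), as they were for 39.1% of the genes tested. Its log2 fold change was -0.36 (SE 0.0927), with an adjusted p = 0.0178 in the quasi-likelihood test of edgeR (Benjamini-Hochberg). With an offset for GC content and exon length the value was 0.12, in the opposite direction, with an adjusted p = 0.353 (range over the alternatives 0.000297 to 1). Notch2 lies at chr3:97817461-97954290 on the plus strand, and no other annotated gene overlaps it.

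Notch4, a receptor mainly of endothelial cells, was the scarcest of the receptors, with 111 and 64 counts in the GSI libraries and 79 and 20 in the washout libraries. In CPM these are 3.47 and 4.38 under GSI against 2.32 and 1.49 after it, so that both washout libraries were below both GSI libraries. The same held for 39.1% of the genes tested. The log2 fold change was -0.98 (SE 0.320), with an adjusted p = 0.0417 in the quasi-likelihood test of edgeR (Benjamini-Hochberg). Of all genes tested, 13.2% had a lower log2 fold change. The value lies just inside the fold threshold and was beyond it in several other settings, for example at -1.01 when 10 counts were required in every library, whereas DESeq2 gave -0.99 with an adjusted p of 0.0802 (range over the alternatives 0.00342 to 1). With the offset for GC content and exon length it was -0.38 (adjusted p = 0.357 in the quasi-likelihood test of edgeR). Among the 5 endothelial markers, Pecam1 was also lower upon washout, while the other 4 were at or under 3 counts in every library. Whether the Notch4 and Pecam1 values are linked was not tested. Notch4 lies at chr17:34701213-34725448 on the plus strand, and the pseudogene Gm20462 on the other strand shares none of its exon bases.

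**Figure D2:**
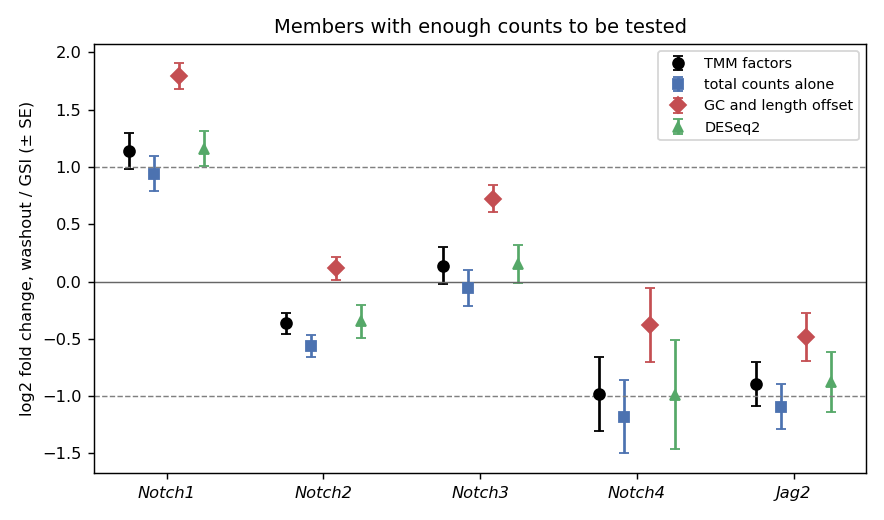
log2 fold change of washout over GSI for the 5 members that could be tested, with standard errors as bars, under 4 ways of processing the counts; dashed lines mark the fold threshold. Notch1 stays above 0 in all 4, Notch4 and Jag2 stay below 0, and Notch2 and Notch3 lie on either side of 0 depending on the processing.

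Jag2, a Jagged-family ligand, was the only ligand that passed the filter on low counts. It was measured at 17.2 and 14.4 CPM in the GSI libraries and at 9.54 and 7.36 CPM in the washout libraries, from 552, 210, 325 and 99 counts. The groups did not overlap, with means of 15.8 ± 2.02 and 8.45 ± 1.54 CPM (SD, n = 2 each). A separation with washout lower was found for 39.1% of the genes tested. For Jag2 the log2 fold change was -0.89 (SE 0.194), with an adjusted p = 0.0101 in the quasi-likelihood test of edgeR (Benjamini-Hochberg), and 15.0% of all genes tested had a lower value. It was beyond the fold threshold with total counts alone (-1.09), without GSI replicate 2 (-1.0005) and without washout replicate 1 (-1.10), and with the offset for GC content and exon length it was -0.48 with an adjusted p of 0.0929 (range over the alternatives 5.55e-06 to 1). Jag2 lies at chr12:114146801-114167706 on the minus strand, with no overlapping gene.

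The 4 other ligands were at the limit of what these libraries can show. Dll4, the ligand that thymic epithelium presents to progenitors, had 18 counts in GSI replicate 1 (95% exact Poisson interval 10.7 to 28.4) and 2 in GSI replicate 2, against 5 and 0 upon washout. The 18 counts in a single library stand apart from the other 3, and the replicates of the GSI group differ about as much as the groups do. Dll3, which is known to act inside the same cell rather than on its neighbor, had 8 and 4 counts in the GSI libraries and 9 and 6 in the washout libraries, and thus a like level in every library, between 0.250 and 0.446 CPM. Jag1, the other Jagged ligand, had 3 and 0 counts in the GSI libraries and 1 and 0 in the washout libraries. Dll1, a Delta ligand, had 2 counts in GSI replicate 1 and 0 in the other libraries. The 95% exact Poisson interval of 0 counts reaches 3.69 counts. The limit of 3 counts was at 0.0881 CPM in washout replicate 1 and at 0.223 CPM in washout replicate 2. No difference between the groups was detectable at this depth for any of these ligands. In a fit without the filter on low counts, none of the 4 passed the adjusted p-value, which was lowest for Dll4 (0.0982 in the quasi-likelihood test of edgeR). The genes lie at chr17:15504318-15513836 (Dll1), chr7:29076673-29087257 (Dll3), chr2:119151520-119161698 (Dll4) and chr2:136907192-136942380 (Jag1). Exons of Dll1 share 867 bases with the lincRNA A930024N18Rik, and exons of Dll4 share 214 bases with the lincRNA Gm14207, which had 0 counts in every library.

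To compare levels between genes, CPM were divided by the summed exon length of each gene in kb. In GSI, Notch3 had the highest level, 49.0 ± 9.50 CPM per kb, followed by Notch1 with 40.1 ± 6.50 CPM per kb, and the libraries of these receptors overlapped in range. Notch2 came next with 9.47 ± 0.501 CPM per kb, then Jag2 with 3.90 ± 0.499 and Notch4 with 0.487 ± 0.0804, each apart from its neighbors. Dll3 and Dll4 followed at 0.0911 and 0.0908 CPM per kb and overlapped, and so did Jag1 and Dll1 at the end of the order. Upon washout the first places were taken by Notch1, at 88.4 ± 7.35 CPM per kb, and Notch3, at 54.0 ± 5.43 CPM per kb, and their ranges were now apart. The other members kept their order, with Notch2 at 7.36 ± 0.202, Jag2 at 2.09 ± 0.380, Notch4 at 0.236 ± 0.0730 and Dll3 at 0.123 ± 0.0447 CPM per kb, while Dll4, Jag1 and Dll1 overlapped as neighbors below them. The place of Notch3 above Notch1 in GSI depended on the length used, and was exchanged when CPM were not divided by length or were divided by the length of the longest coding transcript, since Notch1 has 14232 exon bases in the annotation but 9488 in that transcript.

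As a share of the summed receptor level per kb, Notch1 made up 40.3% and 40.6% in the GSI libraries and 59.0% and 58.9% in the washout libraries. Notch3 made up 48.0% and 50.6% in GSI and 35.5% and 36.4% upon washout. Notch2 went from 11.2% and 8.28% to 5.32% and 4.54%, and Notch4 was under 0.5% in each library. The shares of Notch1 and Notch3 thus differed between the groups by far more than between replicates. Shares of the same sum are tied to each other, so the lower share of Notch3 does not show a lower level. The mean level of Notch3 itself was 49.0 CPM per kb in GSI and 54.0 CPM per kb upon washout. No test is attached to them, because 2 libraries against 2 allow no permutation p under the threshold of 0.05. The summed receptor level was 88.1 and 110.1 CPM per kb in GSI and 141 and 159 CPM per kb upon washout. The summed ligand level was 4.52 and 3.68 CPM per kb in GSI and 2.49 and 1.97 upon washout, of which Jag2 gave 92.1% to 96.4%. The receptor sum was therefore 19.5 and 29.9 times the ligand sum in GSI and 56.7 and 80.5 times upon washout, a ratio that was higher in both washout libraries and varied widely within each group.

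**Figure D3:**
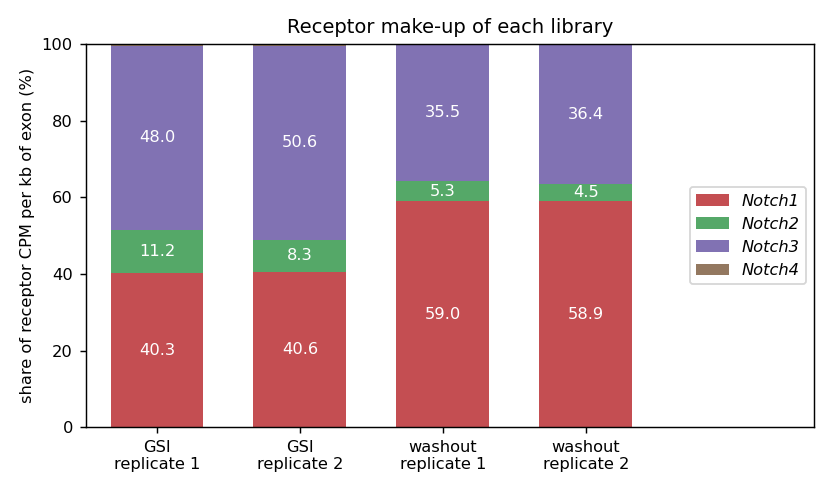
Share of each receptor in the summed receptor level (CPM per kb of exon, in percent) for each of the 4 libraries; Notch4, at under 0.5%, is too thin to be seen. Notch1 has 40.3% and 40.6% in the GSI libraries and 59.0% and 58.9% in the washout libraries.

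Ratios of counts between members of the same library do not depend on how libraries are scaled, and on these the separation of Notch1 from the other members was plain. For each count on Notch3 Notch1 had 1.49 and 1.42 counts in GSI, as compared with 2.94 and 2.86 upon washout. The means were 1.45 ± 0.0470 and 2.90 ± 0.0511 (SD, n = 2 each), with little spread between replicates although the libraries differed in depth. Notch1 to Notch2 was 4.90 and 6.64 in GSI against 15.0 and 17.6 upon washout. Notch3 to Notch2, in which neither gene was called, was 3.30 and 4.68 in GSI against 5.12 and 6.13 upon washout. Notch2 to Jag2 was 5.99 and 6.66 in GSI against 8.26 and 10.3 upon washout. All of these ratios were higher in both washout libraries, and a ratio within a library shows unequal change without showing which member changed.

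The receptors are long genes with exons rich in G and C, and over all genes the median fold change upon washout went with both properties. Jag2 is rich in G and C but, with 4054 exon bases, of middling length. Among the 10962 genes tested with a GC value, the median log2 fold change was 0.12 in the lowest decile of exon GC content and -0.25 in the highest. Notch3, Notch4 and Jag2, with exon GC contents of 59.6%, 59.7% and 61.3%, fell into the highest decile. Notch1, with 55.4%, fell into a decile with a median of -0.15, and Notch2, with 53.6%, into one with a median of -0.07. By exon length, the median log2 fold change was 0.24 in the shortest decile and -0.20 in the longest, which held all 4 receptors. With an offset for both properties, the log2 fold changes were 1.79 for Notch1 and 0.72 for Notch3, with adjusted p-values of 0.000148 and 0.00304 (over the alternatives, 1.82e-16 to 0.487 for Notch1 and 1.82e-07 to 1 for Notch3). The same offset gave 0.12 for Notch2, -0.38 for Notch4 and -0.48 for Jag2, none of which passed the adjusted p-value in that fit. With the replicate block added to the offset, Jag2 was at -0.49 and passed it (0.00376), whereas Notch2 and Notch4 did not. Notch1 was thus above the other members under both treatments of the data. The negative values of Notch2, Notch4 and Jag2 were smaller in size or reversed with the offset. It moved Notch1 from 1.14 to 1.79 and Notch2 from -0.36 to 0.12. Both moves were larger than the medians of the GC and length deciles that hold these genes. The offset was fitted with equal weight for scarce and abundant genes. The offset also shifted the log2 fold changes of the genes in both fits by a median of 0.09. How much of each member's change came from the trend was not tested.

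**Figure D4:**
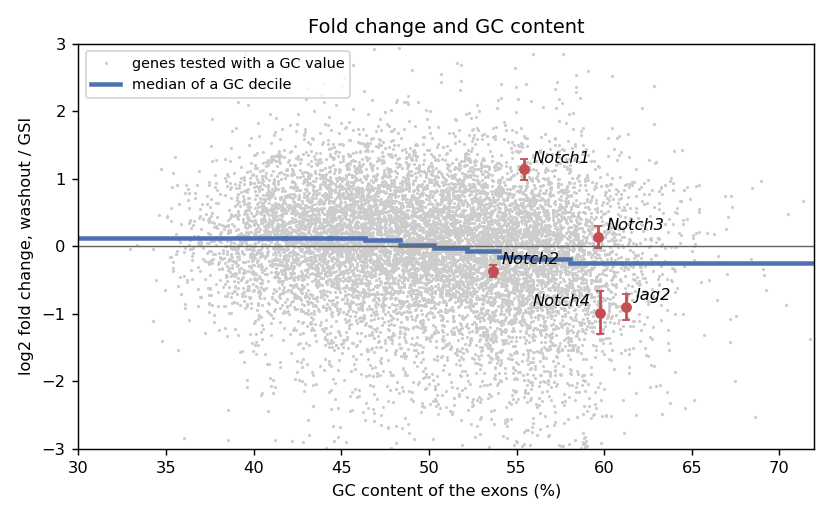
log2 fold change of washout over GSI against the GC content of the exons in percent for the genes tested that have a GC value (gray, 135 of 10962 lie outside the axes), with the median of each GC decile as blue steps and the 5 tested members in red with standard errors. The medians go from 0.12 at low to -0.25 at high GC content, and Notch1 lies well above the median of its decile.

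The other genes of the pathway were examined by role, in a list of 62 genes of which 49 could be tested. Of these, 8 were upregulated and 8 downregulated past both thresholds, and the median log2 fold change was -0.13. Over all genes tested, 7.74% were higher and 11.7% lower, and the counts for each role are read beside these shares. Of the listed targets of the pathway, 5 of 6 tested were upregulated and 0 downregulated, with a median of 2.37. The list was chosen with earlier results of these data known, so this count describes the listed genes and is not independent support. The repressor gene Hey1 was at 16.2 and 18.1 CPM in the GSI libraries and at 179.8 and 199.6 CPM in the washout libraries (log2 fold change 3.47), and Il2ra, which encodes CD25, rose with a log2 fold change of 3.19. The rise of Notch1 was smaller than those of both genes.

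Among the proteases that cut the receptors, 9 were tested, of which 0 were upregulated and 3 downregulated (over all genes 7.74% and 11.7%). Psen2, which encodes a catalytic subunit of γ-secretase, had a log2 fold change of -1.05, and the values of the other genes called, Aph1b and Aph1c, were -2.05 and -2.16. The last 2 are near-identical copies that code for the same kind of γ-secretase subunit, so the division of reads between them is uncertain. Adam10, the protease of the outer cut, had a log2 fold change of -0.51 and was not called. Of the 6 genes of receptor maturation and glycosylation, 1 was upregulated and 2 were downregulated. Mfng, a fringe glycosyltransferase, had a log2 fold change of 1.01 and was at 44.8 and 49.1 CPM in the GSI libraries and at 91.3 and 97.5 CPM in the washout libraries. The genes called as lower were Lfng, another fringe that alters which ligands a receptor answers to, with -2.36, and Furin, the protease of receptor processing in the secretory pathway, with -1.55. Lfng was scarce, at 0.750 and 1.16 CPM under GSI as against 0.117 and 0.298 CPM without it.

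Of the 11 genes of receptor sorting and turnover, 2 were upregulated and 1 was downregulated. Dtx1, a Deltex ubiquitin ligase, rose by 3.20 on the log2 scale, with 46.1 and 64.3 CPM in the GSI libraries and 409 and 605 CPM in the washout libraries, whereas its relative Dtx3 had a log2 fold change of -1.42. In the nuclear complex, 0 of 6 genes were upregulated and 2 were downregulated, both of them Mastermind-like coactivators: Maml2 with -2.22 and Maml3 with -1.10. Rbpj, the DNA-binding partner of all 4 receptors, was at 75.7 and 67.5 CPM in the GSI libraries and at 77.0 and 64.5 CPM in the washout libraries, which overlapped. None of the 4 genes tested for ligand endocytosis and none of the 6 corepressors was called. Of 8 noncanonical ligands only Egfl7 could be tested, and it was not called, so that Jag2 and Egfl7 were the only ligand genes of the lists to pass the filter on low counts.

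The genes tested whose pattern over the 4 libraries was nearest to that of Notch1, by the Euclidean distance of log2(CPM + 0.1) centered on each gene, were Gm12504, Wdr55 and Trp53. Gm12504 was at 51.7 and 66.3 CPM in the GSI libraries and at 124 and 138 CPM in the washout libraries, at a distance of 0.0247. Wdr55 was at 18.2 and 23.8 CPM in the GSI libraries and at 44.1 and 47.9 CPM in the washout libraries, at a distance of 0.0527. Trp53, at a distance of 0.0576, was at 42.4 and 50.6 CPM in the GSI libraries and at 97.1 and 108 CPM in the washout libraries. With 4 libraries the likeness describes the difference between the groups and the order of the replicates, and nothing more.

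Promoters of all 9 members, 10 in number, were looked up in RefSeq (GRCm38.p6, 250 bases before to 50 after the start). The core TGGGAA of the RBPJ motif was searched on both strands. It was in 0 of these 10 promoters, and in 25.6% of the 32851 promoters of the same length in the table, which says only that these letters are not in these windows.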

How the data were processed

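RNA-Seq was measured in 4 libraries of total RNA, prepared with a stranded kit after ribosomal depletion. Trimmed reads were aligned by the authors to mm9 using HISAT2 (version 2.2.1 in the submitters' processing notes) and counted per gene by summarizeOverlaps. The deposited values are raw counts for each gene and library, and 0 columns of the table were left unused. Strand setting and overlap mode are not given in the sources used here. Nothing says that the replicates are separate cultures, so p-values measure the spread between these samples, which may be technical. Replicates differed by more than sampling noise (chi-square over its degrees of freedom 18.2 in the GSI group, 28.8 in the washout group).

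Counts were compared over the whole table with edgeR 4.0.16 in R 4.3.3 (filterByExpr, TMM, quasi-likelihood test, no covariates, Benjamini-Hochberg adjustment over all genes tested), and standard errors are the log2 fold change over the square root of F. The script was tested on simulated data of 12266 genes with 200 changed by 1.5 on the log2 scale, of which edgeR recovered 181 with 1 false call. Positions, exon lengths and GC content are from GENCODE vM1, which matched 20641 symbols. Sequences were read with biopython 1.88. The members, the pathway and marker lists and the tests were chosen with earlier results of these data known. Named genes are all members, the 2 called genes of each pathway role with the largest absolute log2 fold change, Rbpj, Adam10, and the 3 genes nearest to each called member, and 1 further gene that is not reported here. Egfl7, Psen2, Mfng and the marker genes were named after their values were seen. Alternatives were other size factors (RLE, total counts), DESeq2 1.42.0, other filters, thinned counts, a prior count of 2, a GC and length offset, a replicate block, the adjusted p-value alone, glmTreat and leaving out each library. The length of the longest coding transcript was added after seeing the data.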

Additional observations from a re-analysis of the deposited data

How the results depend on the processing

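The log2 fold change of Notch1 was above 0 in all 17 alternatives, and its call was lost in 3: total counts alone (0.94), glmTreat (1.14) and, with values of 0.98 to 1.33 when 1 library was left out, without GSI replicate 1. Of the alternatives, the adjusted p-value alone and glmTreat keep the reported log2 fold changes, so they could not change a sign. Notch2 was reversed by the GC and length offset without and with the replicate block (0.12 in both), an offset that also moved Notch3 to 0.72 and Notch4 to -0.38. Notch3 was reversed with total counts alone (-0.059) and, at -0.052, without GSI replicate 1, and ranged from -0.05 to 0.36 when 1 library was left out. Notch4 passed both thresholds with total counts alone (-1.18), at least 10 counts (-1.01), thinned counts (-1.05) and thinned counts with the replicate block (-1.06), and ranged from -1.38 to -0.73 when 1 library was left out, with the call made without washout replicate 1. Jag2 did so with total counts alone (-1.09) and ranged from -1.10 to -0.72, with the call made without GSI replicate 2 and without washout replicate 1. By the adjusted p-value alone Notch2 (-0.36), Notch4 (-0.98) and Jag2 (-0.89) also passed. Members called numbered 1 as reported, 2 with total counts, at least 10 counts, or thinned counts with or without the block, 4 by the adjusted p-value alone, 0 by glmTreat and 0 to 3 without 1 library. Genes called numbered 2387 as reported, 6435 by the adjusted p-value alone and 809 by glmTreat. Total counts alone moved the median of all genes by -0.20 and the share of higher calls from 39.8% to 23.0%.

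The share of Notch1 among receptors was 53.4% in GSI and 71.0% upon washout without division by length, and 50.4% and 68.3% with the longest coding transcript, in place of 40.5% and 58.9%. In both of these settings 5 of 9 members kept their rank in GSI.

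The replicate numbers were not taken as pairs, since the labels name no shared batch and there are only 2 pairs, although the differences between replicates correlated at 0.497 across genes. With the replicate block Notch1 had a log2 fold change of 1.15, Notch2 -0.37, Notch3 0.15, Notch4 -0.92 and Jag2 -0.90, 981 genes were higher and 1576 lower, and no member's call changed. Dll1, Dll3, Dll4 and Jag1 did not pass the filter on low counts. For Dll1 and Jag1, at or under 3 counts in every library, a low level and no expression cannot be told apart at this depth. Dll3 was above 3 counts in every library, and Dll4 only in replicate 1 of each group.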
